A study of Mus musculus with 9 samples.

Results

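The 10 genes Csf1r, Cx3cr1, Adgre1, Mrc1, Tyrobp, Fcer1g, Cd68, Laptm5, Lyz2 and Aif1 are markers of microglia and macrophages. They were read here in RNA of sorted retinal endothelial cells. Every probe set whose platform annotation gave exactly 1 gene symbol, and whose symbol was one of the 10, was taken. The rule for probe sets reads the annotation alone. The rule found 18 probe sets for all 10 genes, out of 29131 probe sets for 15964 genes. Of the 18, 16 were on array design A, 2 on design C and none on design B.

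Cells were sorted by GFP from the retinas of homozygous Tie2-GFP transgenic mice at postnatal day 8, and their RNA was hybridised to 9 arrays. All animals had received APB5, an antibody that neutralises PDGFRb, by intraperitoneal injection from day 0 to day 7. The arrays were of the MG-U74v2 series, whose designs A, B and C hold different probe sets, with 3 replicates of each. No untreated group was analysed here, so nothing below describes an effect of the antibody. GFP was driven by the promoter of Tie2, a receptor of endothelial cells that some blood-forming cells and monocytes also carry. The labels' protocols describe pooled retinas and a sort by GFP and the dead-cell stain propidium iodide, and they name no leukocyte marker. Whether each replicate was its own pool is not stated in the labels, so each SD below is the spread between 3 arrays and may be technical.

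Microglia are the resident macrophages of the retina and brain. They depend on signals through the receptor Csf1r, whose ligands are Csf1 and Il34, and neurons hold them in check through the chemokine Cx3cl1 and its receptor Cx3cr1. Tyrobp and Fcer1g are small membrane adaptors that carry an activation motif called ITAM, through which immune receptors recruit the kinase Syk. In the developing retina, microglia lie close to growing vessels.

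The cells carried the markers of their label. The probe sets of 23 pan-endothelial genes had a median position at percentile 93.8 of their arrays. On this scale 0 is the lowest and 100 the highest probe set. Above the floor were 36 of 42 (85.7%), against 58.7% of all probe sets with 1 symbol. The floor was the 40th percentile of each array, and a probe set counted as above it only when it exceeded it on all 3 arrays. By construction, about the same share of every array lies above this floor, and it is no detection call. On design A the floor was at an intensity of 33.5, 34.2 and 34.9 in the 3 replicates, and on design C at 25.3, 25.4 and 25.4. Between replicate arrays, r across probe sets was 0.981 to 0.987 on the log2 scale.

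The microglia and macrophage markers lay lower than the endothelial genes on these arrays, and they were spread over nearly the whole range. Their median position was percentile 39.7, beside 52.1 for all probe sets with 1 symbol, and single probe sets ran from percentile 1.93 to 98.8. Above the floor were 8 of the 18 probe sets (44.4%), against a background of 58.7% of all probe sets with 1 symbol. Another 9 of the 18 were above it on no array, against a background of 10015 of 29131 probe sets with 1 symbol. The remaining 1, that of Tyrobp, was above it on 2 of 3. A gene was above the floor when any of its probe sets was. That held for 5 of the 10 genes, namely Csf1r, Cx3cr1, Laptm5, Fcer1g and Cd68, against a background of 72.4% of all genes. Genes with 2 probe sets reached this in 80.4% of cases array-wide and genes with 1 probe set in 60.4%, so the number of probe sets matters to this count. Adgre1, Mrc1, Tyrobp, Lyz2 and Aif1 had no probe set above the floor on all 3 arrays. In RNA from sorted cells, fewer cells of a type and less RNA per cell cannot be told apart. Positions also depend on the probes, so a low one is no proof of absence.

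**Figure D1:**
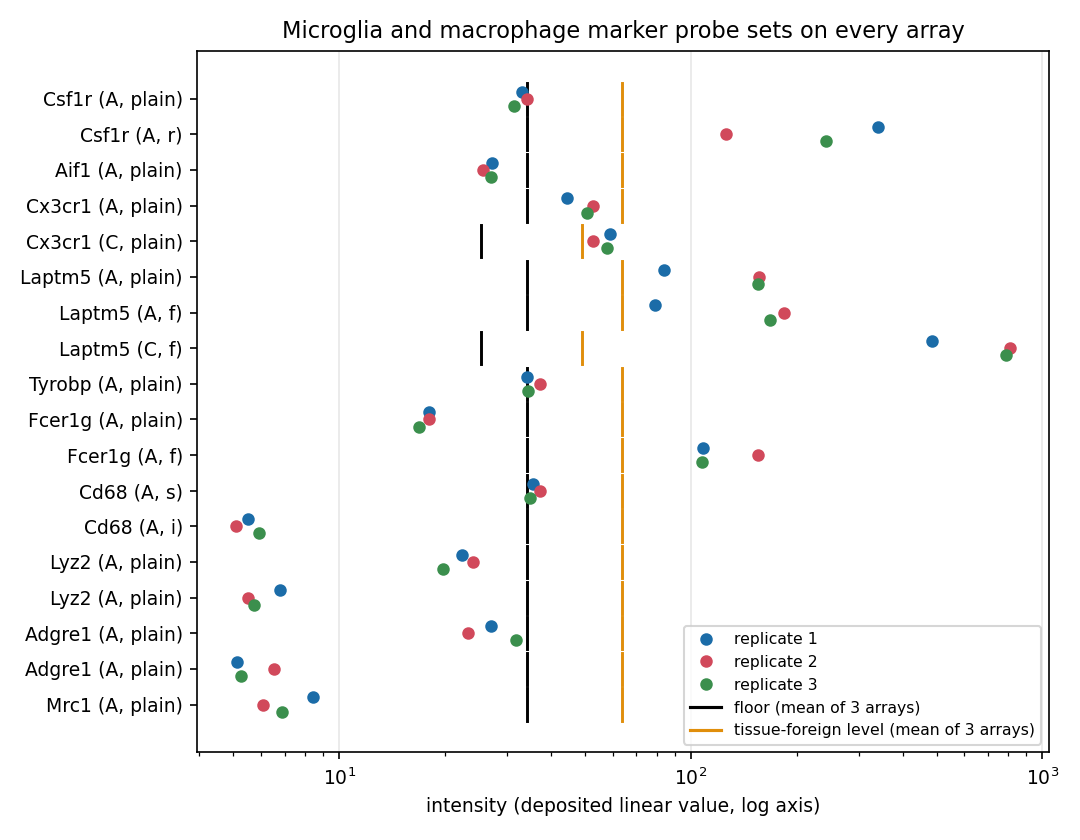
Intensity of each of the 18 member probe sets on its 3 replicate arrays, on a log axis. Labels give the gene, the array design and the letter in the probe set's name that marks shared or reduced probes (plain where there is none). Black ticks mark the floor and orange ticks the level of genes from unrelated tissues. Laptm5 lies right of both ticks on every array, and Mrc1 lies far to the left.

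A stricter level was taken from genes of unrelated tissues such as liver, pancreas and testis, called tissue-foreign here. It was the 90th percentile of such probe sets on each array, with 38 of them on design A and 9 on design C. On design A it stood at 59.0, 64.8 and 66.9, and on design C at 49.2, 45.6 and 52.5. Members above it on all 3 arrays were 6 of 18 probe sets, which is 4 of 16 on design A (background 34.8%) and 2 of 2 on design C (background 32.8%). They belonged to Laptm5, with 3 probe sets, and to Csf1r, Fcer1g and Cx3cr1, with 1 each. The level on design C rests on few probe sets.

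Among the receptors, Csf1r gave contrary readings from its 2 probe sets on design A. Csf1r is the tyrosine kinase receptor that keeps microglia and macrophages alive. Its plain probe set, 104354_at, read 33.0, 34.2 and 31.5 in the 3 replicates, just under the floor each time. It lay at percentile 38.4 ± 2.3 (SD, n = 3 arrays). The probe set 161832_r_at read 341, 126 and 242, at percentile 87.2 ± 7.2 (SD, n = 3 arrays). These readings did not overlap those of the plain probe set on any array. Their spread was wide: replicate 1 was 2.71 times replicate 2, and the SD of 0.73 on the log2 scale was larger than that of 99.3% of the probe sets of design A. The plain probe set had an SD of 0.060. The letter r in a name marks a probe set for which the array's makers relaxed their rules for choosing probes.

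Cx3cr1, the fractalkine receptor that is a defining gene of microglia, was the one receptor above the floor with plain probe sets. It read 44.5, 52.6 and 50.7 on design A, which is between 1.33 and 1.54 times the floor, and lay at percentile 54.2 ± 3.2. On design C, 130459_at read 59.0, 52.5 and 57.6, between 2.07 and 2.33 times the floor of that design, at percentile 70.2 ± 1.5 (SD, n = 3 arrays each). On all 6 arrays that carried Cx3cr1 its readings were above the floor. Only the design C probe set was also above the tissue-foreign level on every array.

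Adgre1 and Mrc1 lay low. Adgre1 encodes F4/80, the adhesion-class receptor by which mouse macrophages are commonly stained. Its probe sets read 27.0, 23.2 and 31.8 for 103507_at and 5.12, 6.53 and 5.26 for 161377_at. All 6 values were under the floor, at percentiles 30.9 ± 5.5 and 1.99 ± 0.53 (SD, n = 3 arrays). Mrc1, the mannose receptor CD206 of perivascular macrophages and of some specialised endothelia, read 8.42, 6.06 and 6.87. That is percentile 3.34 ± 1.4 (SD, n = 3 arrays), under the floor on every array.

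Of the adaptors, Tyrobp lay at the floor itself. Tyrobp, also known as DAP12, read 34.1, 37.2 and 34.5 against floors of 33.5, 34.2 and 34.9, so 2 of its 3 readings exceeded the floor and the reading in replicate 3 did not. Its position was percentile 41.1 ± 2.0 (SD, n = 3 arrays). Fcer1g, the common gamma chain of Fc receptors, again depended on the probe set. The plain 160692_at read 18.0, 18.1 and 16.8, about 0.483 to 0.537 of the floor, at percentile 16.4 ± 1.6. The probe set 162181_f_at read 108, 155 and 107, at percentile 78.8 ± 3.6 (SD, n = 3 arrays), with replicate 2 above the other two. The letter f marks probes shared within a sequence family. The gap between the probe sets was 62.4 percentile points.

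The lysosomal markers ran from the bottom to the top of the arrays. Cd68, a glycoprotein of macrophage lysosomes, read 35.6, 37.2 and 34.9 with 103016_s_at. That was above the floor on all 3 arrays, but in replicate 3 only by a ratio of 1.0003, and its position was percentile 42.0 ± 1.7. Its other probe set, 162173_i_at, read 5.52, 5.09 and 5.91, at percentile 1.93 ± 0.35 (SD, n = 3 arrays). Lyz2, the lysozyme of macrophages and granulocytes, read 22.3, 24.1 and 19.7 with 100611_at and 6.77, 5.49 and 5.71 with 162309_at. All 6 values were under the floor, at percentiles 23.3 ± 4.1 and 2.36 ± 0.78 (SD, n = 3 arrays). A probe set annotated to both Lyz1 and Lyz2, which are near-identical copies, was no member. It read 23.9, 20.0 and 26.8 and was also under the floor on every array. Lyz1, the lysozyme of Paneth cells, read 109, 104 and 103 with 139754_f_at on design C. That was percentile 85.8 ± 0.47 (SD, n = 3 arrays), above the floor and the tissue-foreign level on all 3 arrays. Whether its probes also read Lyz2 was not tested. The Lyz1 probe set 169724_r_at read 6.51, 9.28 and 5.87, under the floor on every array.

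Aif1, which encodes the calcium-binding protein Iba1 of the microglial cytoplasm, read 27.2, 25.6 and 27.1. It was under the floor on all 3 arrays, at percentile 30.1 ± 1.4 (SD, n = 3 arrays), with an SD of only 0.048 on the log2 scale.

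Laptm5 was the one member whose every probe set, 3 in all, was above both levels on every array. It encodes a transmembrane protein of lysosomes in blood-derived cells, where it takes part in the turnover of immune receptors. On design A, the plain 100012_at read 83.7, 156 and 156, and 161819_f_at read 79.3, 184 and 168. They lay at percentiles 79.4 ± 7.5 and 80.3 ± 9.3, and their readings overlapped. On design C, 167764_f_at read 486, 810 and 787, at percentile 98.8 ± 0.88 (SD, n = 3 arrays each). Intensities of different designs were not set against each other, since the tables may have been scaled separately.

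Laptm5 read lowest in replicate 1 with each of its probe sets. Replicate 2 was 1.86, 2.32 and 1.67 times replicate 1 for 100012_at, 161819_f_at and 167764_f_at, and replicate 3 was 1.86, 2.12 and 1.62 times replicate 1. After each array was centred on its median, replicate 3 minus replicate 2 was -0.0058, -0.132 and -0.017 on the log2 scale for the same probe sets. Replicate 1 more than 1.5-fold under both others was rare on these arrays, with 0.58% of all probe sets and 0.234% of those above the floor. Among the 18 member probe sets it occurred in 3, all of Laptm5. The mirror case, replicate 1 that far above both others, occurred in 0 of the 18, against 0.83% of all probe sets and 0.754% of those above the floor. Replicate 2 that far under both others occurred in 1 member, the r_at probe set of Csf1r. Array-wide this held for 1.37% of all probe sets and 1.43% of those above the floor. This limit was chosen after the readings of Laptm5 were seen. With 3 arrays a design there is no test of it, and the labels do not say whether arrays of equal number shared an RNA sample.

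Of the 15 other member probe sets, 2 were lowest in replicate 1, 7 in replicate 2 and 6 in replicate 3. Among the myeloid identity genes that were no members, 17 of 36 probe sets (47.2%) were lowest in replicate 1, and on design A 13 of 22 (59.1%). Over all probe sets with 1 symbol, 32.4% were lowest in replicate 1, 32.8% in replicate 2 and 34.9% in replicate 3. The 14 member probe sets on design A that were not of Laptm5 summed to 717, 557 and 620 in replicates 1, 2 and 3. Of these sums the r_at probe set of Csf1r made up 341, 126 and 242. The myeloid genes that were no members summed to 709, 769 and 770 on design A and to 453, 406 and 425 on design C. The pan-leukocyte genes summed to 1474, 1631 and 1463 on design A and to 80.4, 83.9 and 85.5 on design C. Of these design A sums the Lcp1 probe set 94278_at made up 820, 1010 and 828. The pan-endothelial genes summed to 17946, 19676 and 17707 on design A and to 2907, 3626 and 3272 on design C. On design C the pan-leukocyte and pan-endothelial sums were lowest in replicate 1. On design B both were highest there, at 35.1, 33.3 and 32.1 (1 probe set) and at 5223, 4676 and 4815. The junction cadherin Cdh5 read 1032, 1576 and 1439 on design A. Of the 26 pan-endothelial probe sets there, 8 (30.8%) were lowest in replicate 1, 3 in replicate 2 and 15 in replicate 3. Over all probe sets with 1 symbol on design A, 32.3% were lowest in replicate 1, 29.9% in replicate 2 and 37.7% in replicate 3. No probe set of these lists read 0 on any array. The part of any of these in the Laptm5 readings was not tested.

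**Figure D2:**
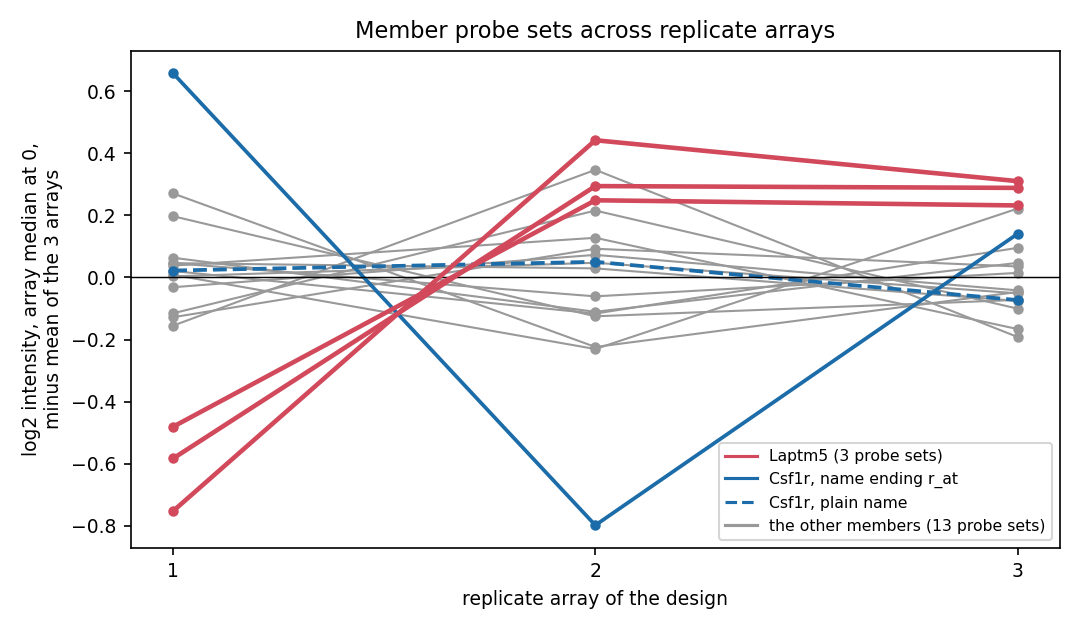
Log2 intensity of the 18 member probe sets on each replicate array, with each array centred on its median and each probe set on its own mean. The 3 Laptm5 lines (red) are low in replicate 1, while the Csf1r probe set 161832_r_at (solid blue) is high in replicate 1 and low in replicate 2. The other lines mostly stay closer to 0, but the Fcer1g probe set 162181_f_at is high in replicate 2.

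A larger share of member probe sets with lettered than with plain names was above the floor. Of 12 with plain names, 3 were above the floor, namely both of Cx3cr1 and 1 of Laptm5, and their median position was percentile 30.5. Of 6 with a letter for shared or reduced probes, 5 were above it, at a median of 79.5. Array-wide the order was the other way round, with 61.1% of plain and 51.2% of lettered probe sets above the floor. The 6 lettered member probe sets came from only 4 genes. Those above the floor included Laptm5, whose plain probe set was above it too. They also included Cd68, which passed it in replicate 3 by a ratio of only 1.0003. Kind of probe set and gene are not separated in the members' shares. Probe sets of the same gene on design A could be paired for 6 members. In 5 of these pairs the readings did not overlap, and in 3, those of Csf1r, Fcer1g and Cd68, only 1 of the pair was above the floor. The readings of the Laptm5 pair overlapped. Over all 1675 genes with 2 probe sets on design A, the readings did not overlap for 88%, and only 1 of the pair was above the floor for 45.2%.

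Replicate spread differed between member probe sets. The median SD over 3 arrays was 0.15 on the log2 scale for the members and 0.13 for all probe sets with 1 symbol. Without the Laptm5 probe sets the members' value was 0.126, against 0.132 for all probe sets, both over 3 arrays. For all member probe sets, Laptm5 included, the median SD was 0.087 without replicate 1, 0.099 without replicate 2 and 0.16 without replicate 3. Those are SDs over fewer arrays, and no such value for all probe sets is given beside them. The widest spreads belonged to the r_at probe set of Csf1r, to Laptm5 (0.41 to 0.67) and to the f_at probe set of Fcer1g (0.31). Aif1, Tyrobp and the plain probe sets of Csf1r and Fcer1g had SDs between 0.048 and 0.068.

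**Figure D3:**
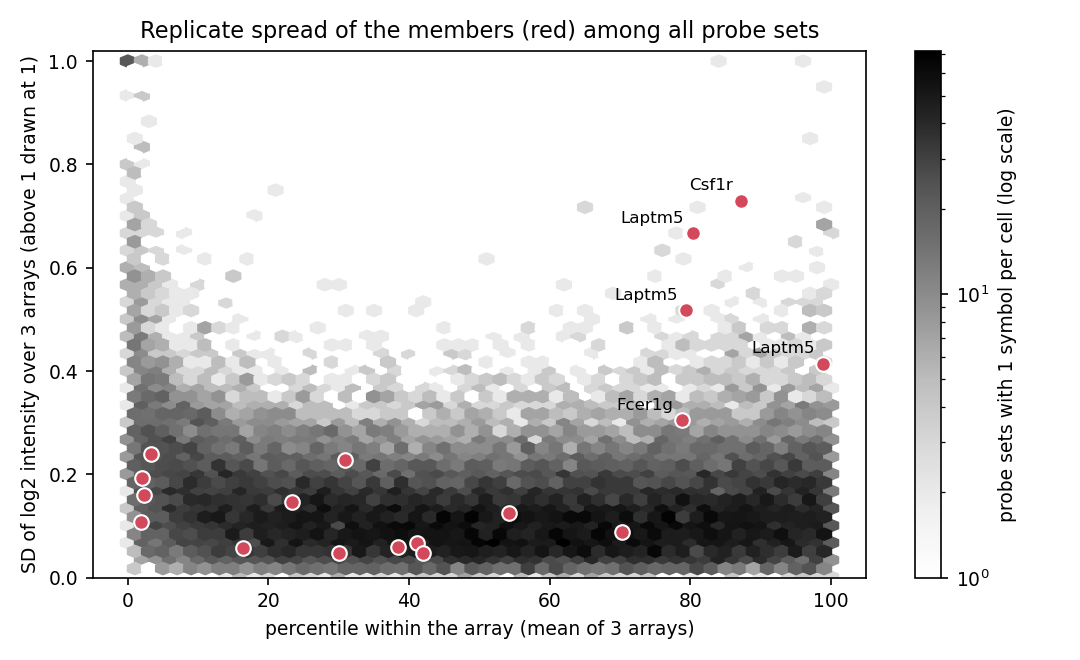
SD of log2 intensity over the 3 replicate arrays against position within the array, with all probe sets with 1 symbol in grey and the 18 member probe sets in red. The Csf1r probe set at an SD of 0.73 and the 3 Laptm5 probe sets lie above the bulk of probe sets at the same position, and Fcer1g at 0.31 is next.

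Other genes of microglial and macrophage identity lay in the same range. Of 30 listed genes, 26 were measured, with 36 probe sets at a median percentile of 37.9. Above the floor were 16 of the 36 (44.4%) and 13 of the 26 genes. The background was 58.7% of all probe sets with 1 symbol and 72.4% of all genes, here and for the lists below. Sall1, a transcription factor of microglia, read 203, 153 and 167 on design C, at percentile 92.3 ± 0.59. Cd33, a sialic acid receptor of myeloid cells, lay at percentile 88.3 ± 1.3 on design C, and Olfml3, a secreted protein of microglia, at 69.6 ± 0.90 on design B. Tmem119, a membrane protein specific to microglia within the brain, read 45.7, 42.0 and 44.2 on design B, at percentile 50.1 ± 1.4. Spi1, the myeloid master regulator PU.1, read 36.2, 39.5 and 37.4, at percentile 43.9 ± 1.5 and above the floor on all 3 arrays. Itgam, the integrin chain CD11b, read 25.8, 32.4 and 28.1, under the floor on every array. Lowest were P2ry12, the purine receptor of resting microglia, with 4.55, 4.10 and 4.65 from a lettered probe set, and Cybb, the oxidase subunit of phagocytes. The 3 probe sets of Cybb lay between percentiles 2.01 and 6.98. The list held genes with readings near the top of the arrays beside defining markers near the bottom.

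Perivascular and border macrophage genes had a median percentile of 36.2 over 13 probe sets of 10 genes, with 5 above the floor. Ms4a7 read 366, 254 and 300 on design C, at percentile 96.3 ± 0.41. Stab1, a scavenger receptor that sinusoidal endothelium also carries, had probe sets at 94.4 ± 1.2 (design A) and 52.6 ± 2.2 (design B). Mgl2, a lectin of macrophages, lay at 47.7 ± 1.5. F13a1, a coagulation factor chain, lay at 15.3 ± 0.47 (design B) and 34.9 ± 2.4 (design C). Cbr2, a carbonyl reductase, lay at 11.8 ± 1.2 (SD, n = 3 arrays each). Genes of activated microglia had a median percentile of 29.2 over 17 probe sets of 9 genes, with 7 above the floor. In that list the tetraspanin Cd9 lay at 94.5 ± 0.68, Apoe, a lipid carrier, between 11.8 and 89.5 over 3 probe sets, and the lysosomal protease Ctsb between 17.5 and 90.3 over 4. The receptor tyrosine kinase Axl lay at 7.47 ± 1.9, and the lipase Lpl averaged 18.9 ± 1.7 over 2 probe sets. These lists are not specific to macrophages, since Cd9, Apoe, Ctsb and Stab1 are also expressed by other cells.

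Partners of the adaptors and ligands of the receptors were measured on the same arrays. The ITAM signalling list had 17 of 24 probe sets above the floor and a median percentile of 52.4, with 13 of 18 genes measured. Syk, the kinase that binds phosphorylated ITAMs, read 109, 90.6 and 105 with a plain probe set, at percentile 75.2 ± 2.5. Its lettered probe set read 21.8, 20.9 and 37.2 and exceeded the floor in replicate 3 alone. Bcl10, a signalling adaptor of many cell types, lay at 98.0 ± 0.11, the Tyrobp-coupled receptor Sirpb1a at 74.6 ± 1.4 and the lipid phosphatase Inpp5d at 68.7 ± 2.2. The adaptor Lcp2 lay at 31.1 ± 1.8 and the kinase Btk averaged 9.37 ± 0.96 over 2 probe sets. Trem2, a receptor that signals through Tyrobp, was not analysed here.

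Ligands and partner cytokines had 12 of 14 probe sets above the floor (85.7%, background 58.7%) and a median percentile of 65.1 over 11 genes. Csf1 read 187, 170 and 166, at percentile 85.4 ± 0.79 on design A. Il34, the other ligand of Csf1r, read 43.4, 43.1 and 48.0 on design B, at percentile 51.1 ± 1.9. Cx3cl1 had 3 probe sets, of which 98008_at read 33.9, 32.8 and 34.2 and exceeded the floor on 1 array, 161752_r_at read 37.0, 36.5 and 42.5, and 164885_f_at on design B read 80.4, 60.8 and 50.3. Cd47 and Cd200, surface proteins that restrain macrophages and that endothelial cells also carry, averaged 87.0 ± 0.27 and 84.9 ± 2.5. Gas6, a bridging ligand for phagocytosis, lay at 48.3 ± 7.3 and Tgfb1 at 36.6 ± 2.2 (SD, n = 3 arrays each).

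Lists of other blood cells were read in the same way. Pan-leukocyte genes had a median percentile of 44.9 over 18 probe sets of 10 genes. Above the floor were 10 of the 18 (55.6%), near the background of 58.7%. Among them Arhgdib lay at 87.0 ± 0.94, Lcp1, an actin bundler, between 28.3 and 97.8, and the surface antigen Cd52 at 61.7 ± 3.9. The leukocyte phosphatase Ptprc, CD45, read 9.63, 9.14 and 7.88 with 101048_at, 6.73, 6.66 and 6.27 with 101297_at, and 53.9, 40.4 and 44.8 with 101298_g_at. Only the last, whose letter marks shared probes, was above the floor. Itgb2, the common integrin chain of leukocytes, read 14.7, 15.7 and 15.8, under the floor on every array. Lymphocyte genes had a median of 22.2, with 3 of 15 probe sets above the floor, and those 3 belonged to Cd2, Cd4 and Cd79a at 67.0, 58.1 and 51.3. The T cell receptor subunits Cd3e and Cd3d averaged 15.0 and 14.9. Granulocyte genes had a median of 41.1, with 5 of 13 above the floor. Camp, Prtn3 and Csf3r averaged 63.9, 61.3 and 48.3, and Mpo and S100a8 24.9 and 24.7. The tissue-foreign genes had a median of 23.9, with 17 of 51 above the floor. Among them Sftpb, a surfactant protein of the lung, averaged percentile 71.2 ± 2.9, the pancreatic protease precursor Ctrb1, read by an r_at probe set, 71.1 ± 2.0, and the pituitary hormone subunit Tshb 59.5 ± 3.6. At the low end were the fibrinogen chain Fgb at 5.67 ± 1.6 and the testis lactate dehydrogenase Ldhc at 5.14 ± 0.89 (SD, n = 3 arrays each).

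Tek, the gene of Tie2, read 335, 360 and 317 on design A, at percentile 92.6 ± 0.26 (SD, n = 3 arrays). Pecam1, an adhesion molecule shared by endothelium and leukocytes, read 47.1, 49.6 and 43.9, at percentile 52.4 ± 2.5. At the top of the other endothelial genes were Cd93, at 99.85 ± 0.049 (design A) and 99.84 ± 0.041 (design B), and Cldn5 at 99.2 ± 0.33. Lowest were Mmrn2, which averaged 41.5 over 3 probe sets of designs B and C, and Egfl7, which averaged 30.5 ± 4.6. Probe sets of Mmrn2 ranged from percentile 1.45 to 98.6. A gene known from the sorted cells themselves could thus lie as low as the macrophage markers on some probe sets.

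**Figure D4:**
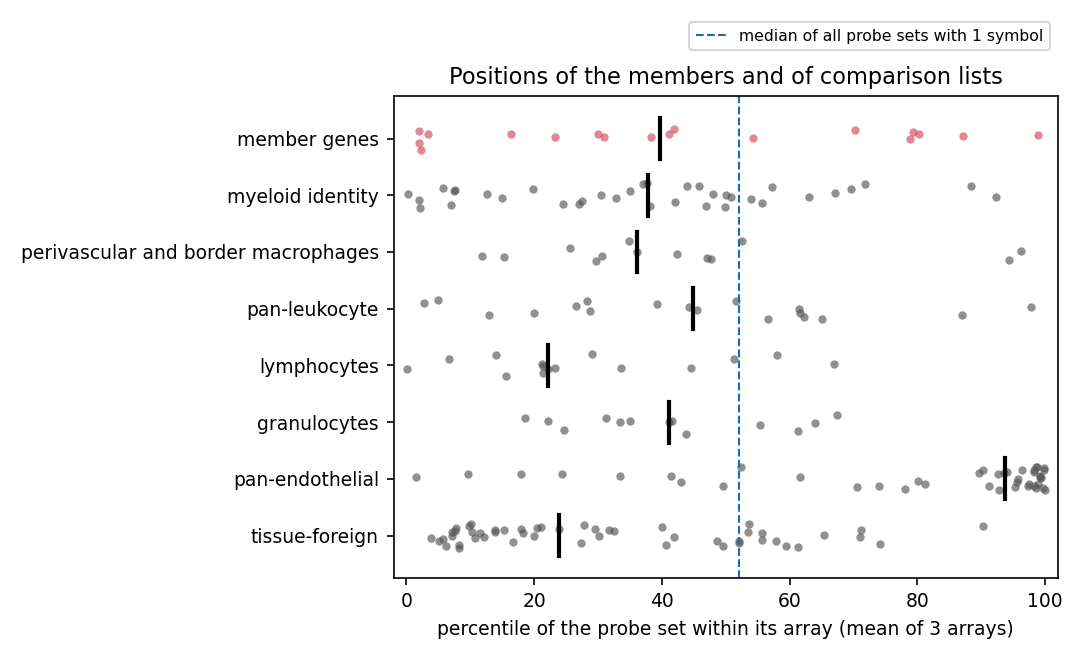
Position of each probe set within its array, as a percentile averaged over 3 replicate arrays, for the member genes (red) and 7 comparison lists (grey). Black bars are list medians and the dashed line is the median of all probe sets with 1 symbol. The member median of 39.7 lies left of that line and the pan-endothelial median of 93.8 far right of it.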

How the data were processed

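Per the labels, amplified, biotin-labelled RNA was hybridised to Affymetrix MG-U74v2 arrays. The authors deposited a table for each design with 1 linear intensity for every probe set on every array. The sources used here do not give how probes were summarised and arrays scaled. Array medians were 43.6 to 44.3 on design A and 32.3 to 32.9 on design C. The 7 values of 0 in all tables took the array's smallest positive value before log2.

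Symbols came from the platform annotation, and looking up their Entrez identifiers in RefSeq (GRCm38.p6) changed none of them. Of 36701 probe sets, 29131 had 1 symbol, 724 several and 6846 were unnamed here. Percentiles, floors and SDs were computed with Python 3.11.15, pandas and NumPy, and tested on simulated data. With 1 condition and 3 arrays a design, no test was made, and the number of arrays limits the precision. No detection calls, coordinates or probe sequences were used. The members and the 10 comparison lists were chosen with earlier results of these data known. In each comparison list, the 3 highest and 2 lowest genes and 14 preset genes were named where measured. On design B the tissue-foreign level rested on 4 probe sets and lay below the floor, so it was not used there. Alternatives were other floors, probe set names, ranks, gene summaries, log offsets, quantile normalization and each replicate left out.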

Additional observations from a re-analysis of the deposited data

How the results depend on the processing

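No paired analysis was possible because the designs carry different probe sets and no result comes from a test. Of 95 values recomputed for the main results, 65 stayed within the replicate spread, or within 1.5 times for counts. With plain probe set names only, 3 of 12 member probe sets and 2 of 9 member genes were above the floor. Array-wide that held for 61.1% of plain probe sets and for 10385 of 14728 genes with them. Above the tissue-foreign level were 2 of the 12. Over plain and lettered probe sets together that share was 34.8% on design A and 32.8% on design C. With plain names the member median was 30.5, the pan-endothelial one 95.8 and the tissue-foreign one 27.4. Without the Laptm5 probe sets, chosen after seeing the data, 5 of 15 member probe sets were above the floor (33.3%, background 58.7%). Above the tissue-foreign level were 3 of the 15, with a member median of 30.9 and a median SD of 0.13. With only each gene's strongest probe set, medians were 48.1 for members, 43.0 for myeloid identity, 56.7 for pan-leukocyte, 96.9 for pan-endothelial and 29.5 for tissue-foreign genes. With probe sets of a gene averaged, they were 44.4 for members and 29.5 for tissue-foreign genes. Ranked among probe sets with 1 symbol, they were 37.8 for members, 43.0 for pan-leukocyte, 39.2 for granulocyte and 20.6 for lymphocyte genes. A floor at the 60th percentile left 6 of 26 myeloid identity genes, and no share of all genes at that floor is given beside it. The largest gap between replicates in the median member deviation was 0.062 on the log2 scale. It was 0.023 with 50 added before log2 and 0.22 over members above the floor on at least 1 array, where the median SD was 0.037 and 0.31. Leaving out 1 replicate gave gaps of 0.024 to 0.037, median SDs of 0.087 to 0.16, and a lymphocyte median of 21.7 to 23.9. The cause of these moves was not tested.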

Other observations

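Laptm5 was not alone in reading low in replicate 1. Among the 17099 probe sets above the floor, 40 probe sets of 37 genes lay more than 1.5-fold under both other replicates there, 17 of them on design A, 18 on B and 5 on C. Laptm5 and Bpgm, an enzyme of red cells that makes bisphosphoglycerate, were the 2 genes with more than 1 probe set among them. Bpgm read 153, 289 and 237 on design A and 576, 904 and 1023 on design B. The amino acid transporter Slc38a5 of retinal vessels read 270, 620 and 539 on design A, and Slco1c1, a thyroid hormone transporter of brain capillaries, read 92.1, 193 and 163 on design C. The amino acid transporter Slc7a5 read 406, 631 and 784 on design A. Xist, the RNA of the inactive X chromosome, read 65.7, 213 and 219 on design A, and between 5.74 and 6.38 with a low probe set on design B. These genes were picked after their values were seen, and no test was made of them.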
